A study of Mus musculus with 6 samples.

Results

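Glycolysis, pyruvate and lactate genes are the genes for glucose uptake, the glycolytic enzymes, lactate production and transport, and the pyruvate dehydrogenase step, with the regulator Hif1a. They were chosen by name, and all array probes annotated to these genes under a current or older symbol were used. An older symbol that now belongs to another gene was not counted: Eno1b was once also called Eno1, and Pigq was once also called Gpi1. Of the 33 genes listed, 30 had a named probe, and 24 were detected well enough to be tested among 8651 genes in all. Hk2, Gpi1 and Eno1 were not analysed here, because no probe used here carried their name. Most steps of the pathway can be run by several isozymes, each coded by its own gene, so the comparison asks both whether the pathway genes differed between the lines and which isozyme of a step did.

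RNA of 2 mouse pluripotent lines grown under embryonic stem cell conditions was hybridised to Illumina bead arrays, with 3 cultures of each line, which the design text calls biological replicates. E14TG2A is an embryonic stem cell line of strain Sv129 that comes from the inner cell mass and was bought from ATCC, and it is the study's reference. The i2PS cells are of strain BALB/c and came from liver hepatocytes that were reprogrammed inside the animal. Both lines were kept in DMEM and LIF on fibroblast feeders at first, and the feeders were then removed by 3 passages on gelatin. Each group is 1 line, so strain, tissue of origin and reprogramming cannot be told apart, and the p-values measure only the spread between cultures of these lines.

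Glycolysis splits glucose into pyruvate in the cytosol. Pyruvate is then either reduced to lactate and exported, or taken into mitochondria and turned into acetyl-CoA by the pyruvate dehydrogenase complex, which pyruvate dehydrogenase kinases switch off by phosphorylation. Mouse pluripotent cells of the naive type are known to use both glycolysis and respiration, whereas primed pluripotent cells rely mainly on glycolysis. Tissues differ in the isozyme used at a step, for example a liver, a muscle and a platelet type of phosphofructokinase, and muscle and neuron types of enolase.

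Signals are given on the normalized log2 scale of each array unless stated otherwise, and differences are i2PS minus E14TG2A with the SE and 3 arrays per line. A probe responds in its own way, so that levels are compared between lines for 1 probe and never between genes. The lowest raw signal of the 6 arrays lay on E14TG2A replicate 1 for 24 of 24 tested members, and the mean signal of that array was 228 against 340 to 403 elsewhere. Pluripotency markers were detected on every array, 8 of 8, with summed signals of 53594 to 93328.7 in E14TG2A and 90637.5 to 91344.7 in i2PS. Of these 8, Zfp42, Esrrb and Tdgf1 passed as higher in i2PS, by 0.37 to 0.47, and the others did not pass. No array detected any of 8 hepatocyte markers, Alb and Afp included, whose summed background signals were 780.7 to 872.4 in E14TG2A and 803.9 to 839.4 in i2PS. Of 8 fibroblast markers, 1 or 2 were detected per array, and their summed signals were 1401.5 to 1629.4 in E14TG2A and 1518.8 to 1642.1 in i2PS. Col1a2, Col3a1, Lum, Pdgfrb and Postn were detected on none. Col1a1 was detected on 2 E14TG2A arrays and no i2PS array, and Dcn on 1 i2PS array and no E14TG2A array. Thy1, the only fibroblast marker that could be tested, rose by 0.84 ± 0.16 (adjusted p = 0.00268). The markers thus differed in direction, and the part of such cells in the results was not tested.

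Among the 24 tested members, 9 rose in i2PS, 2 fell and 13 did not pass the test. The genes that rose were the transporter gene Slc2a1, the phosphofructokinases Pfkl and Pfkm, the enolase Eno3, the lactate dehydrogenase Ldha, the 3 tested pyruvate dehydrogenase kinases Pdk1, Pdk3 and Pdk4, and the pyruvate dehydrogenase subunit Pdha1. The transporter gene Slc2a3 and the enolase Eno2 fell. Pdk1 had the largest difference of the 24, at 2.8-fold, and the other 10 that passed differed by 1.21 to 1.82-fold. In RNA of whole cultures, fewer cells that express a gene and less RNA of it per cell cannot be told apart.

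The share of members that passed, 45.8%, was near the 43.7% of all tested genes. Of all tested genes, 23.3% passed as higher and 20.4% as lower. The members had a median difference of 0.12, and all tested genes a median of 0.03. The member median includes Pgam2 (0.26) and Dld (0.33), which entered the test through i2PS, where they read higher. The 3 arrays of one line lay wholly above or below those of the other for 14 of the 24 members (58.3%) and for 55.8% of all tested genes. These 14 were the 11 that passed and Aldoa, Gapdh and Dlat. For 21 members, the 95% interval of the difference lay between -1 and 1, that is within 2-fold; the exceptions were Pdk1, Eno3 and Pdk4. Without E14TG2A replicate 1, 9 members rose and 3 fell, among them all 11 named above. When arrays were scaled to equal medians over all probes, Pdk1 alone passed. With equal medians over the probes detected on all arrays, a scaling chosen after seeing the data, 9 members passed, 8 higher and 1 lower. The first of these scalings moved the median of all genes from 0.03 to 0.19, and relative to this median all 11 kept their direction.

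**Figure D1:**
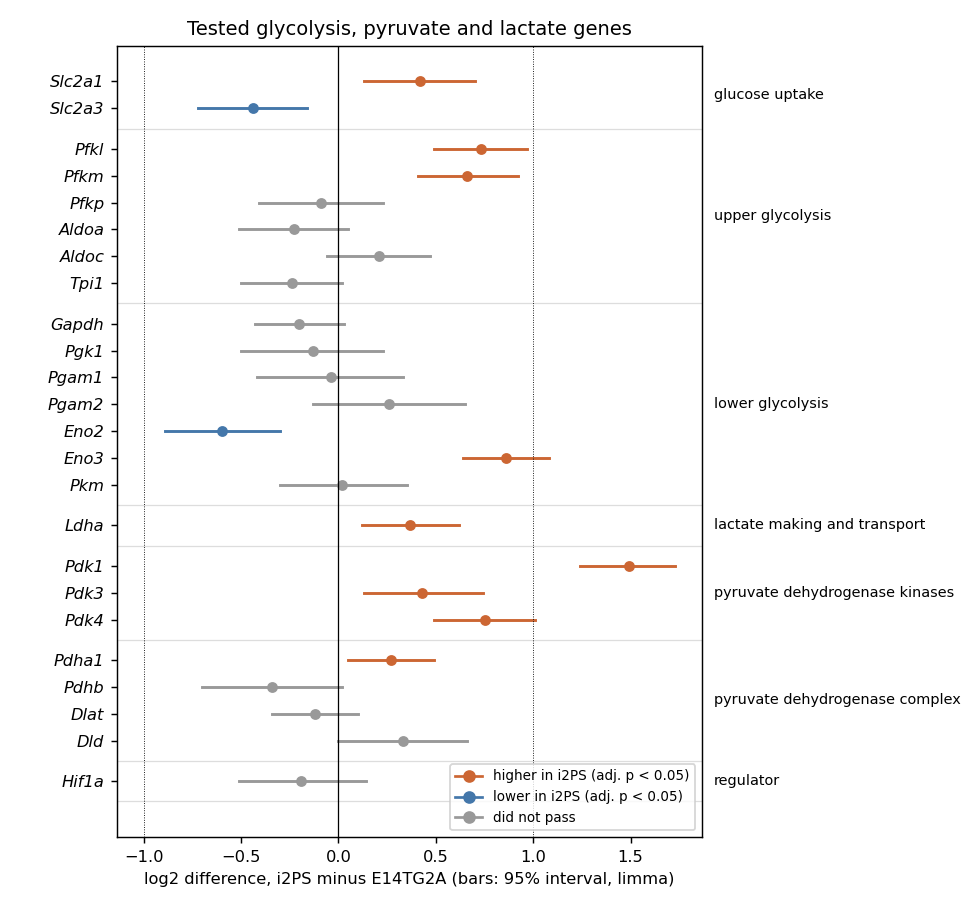
Log2 difference of each of the 24 tested genes, i2PS minus E14TG2A, with its 95% interval from limma, grouped by role; dotted lines mark 2-fold. Pdk1 lies farthest to the right at 1.49, Eno2 lies farthest to the left at -0.60, and 21 of the 24 intervals stay inside the dotted lines.

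The enolases and the pyruvate dehydrogenase kinases showed the largest changes of an isozyme ratio, and their promoters are therefore shown. Each is the stretch of 250 bases before a start of the gene in RefSeq, build GRCm38.p6, read 5′ to 3′ on the gene's own strand. Pdk1 has 2 such windows in that table, and the most upstream one was taken, as for all genes. Capitals mark the core of the hypoxia response element, the letters ACGTG or GCGTG on either strand; a match on the other strand appears as CACGT or CACGC, and ACGTG is also part of the E-box CACGTG. The windows are chr2:71872974-71873223 on the plus strand, chrX:93832151-93832400 on the minus strand, chr6:5496279-5496528 on the minus strand, chr6:124769674-124769923 on the minus strand and chr11:70656926-70657175 on the plus strand.
Pdk1: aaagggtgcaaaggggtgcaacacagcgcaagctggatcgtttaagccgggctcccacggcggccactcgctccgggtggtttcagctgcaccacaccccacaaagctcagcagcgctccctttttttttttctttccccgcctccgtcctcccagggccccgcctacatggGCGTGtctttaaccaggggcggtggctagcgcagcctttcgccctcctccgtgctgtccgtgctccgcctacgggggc
Pdk3: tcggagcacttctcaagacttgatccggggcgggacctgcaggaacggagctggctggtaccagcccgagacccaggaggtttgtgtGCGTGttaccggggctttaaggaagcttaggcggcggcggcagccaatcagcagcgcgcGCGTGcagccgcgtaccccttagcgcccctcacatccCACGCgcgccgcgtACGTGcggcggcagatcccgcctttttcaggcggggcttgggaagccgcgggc
Pdk4: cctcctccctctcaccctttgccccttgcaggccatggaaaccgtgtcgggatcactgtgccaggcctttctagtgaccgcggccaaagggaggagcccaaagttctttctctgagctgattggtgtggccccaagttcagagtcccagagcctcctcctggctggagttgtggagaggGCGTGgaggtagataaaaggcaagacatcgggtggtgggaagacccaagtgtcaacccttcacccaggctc
Eno2: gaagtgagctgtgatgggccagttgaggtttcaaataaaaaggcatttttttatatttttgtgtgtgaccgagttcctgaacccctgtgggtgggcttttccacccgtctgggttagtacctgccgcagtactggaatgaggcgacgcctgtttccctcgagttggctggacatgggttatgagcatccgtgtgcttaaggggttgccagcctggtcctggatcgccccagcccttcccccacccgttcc
Eno3: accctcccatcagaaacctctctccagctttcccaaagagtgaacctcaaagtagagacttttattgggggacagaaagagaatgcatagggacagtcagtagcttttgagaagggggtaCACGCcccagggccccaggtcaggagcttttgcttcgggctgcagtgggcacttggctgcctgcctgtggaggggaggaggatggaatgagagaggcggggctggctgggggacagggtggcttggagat

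The Pdk3 window holds 4 matches, at 163, 104, 67 and 53 bases before the start, and 29 CG pairs. Pdk1 has 1 match 78 bases before the start, Pdk4 has 1 at 71 bases and Eno3 has 1 at 130 bases on the other strand. These letters are not in the Eno2 window. Of the 32 members with a promoter in the table, 9 of which were not tested, 23 hold the core (71.9%). It is held by 58.6% of 7054 tested genes and by 38.6% of all 32851 promoter windows of this length. All 9 members that rose hold it, as do 7 of the 13 that did not pass and 7 of the 9 that were not tested. Over all tested genes, 56.1% of those that rose, 56.0% of those that fell and 60.5% of those that did not pass hold it. Matches are a description of letters and show no binding.

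Both tested glucose transporter genes passed, in opposite directions. Slc2a1 codes for GLUT1, the transporter of basal uptake in many cells, and its arrays read 10.71, 10.99 and 11.12 in E14TG2A and 11.32, 11.33 and 11.42 in i2PS. All i2PS arrays lay above all E14TG2A arrays, with a difference of 0.42 ± 0.126 (1.33-fold, adjusted p = 0.0248). Slc2a3 codes for the high-affinity transporter GLUT3, known from neurons, and it read 13.29, 12.90 and 13.05 in E14TG2A and 12.61, 12.71 and 12.61 in i2PS. It was lower on every i2PS array, 1.35-fold (adjusted p = 0.0192).

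Both transporter calls were lost with fewer i2PS arrays, at differences close to those above. Slc2a1 differed by 0.43, 0.43 and 0.38 without i2PS replicate 1, 2 or 3 and did not pass (adjusted p = 0.0559, 0.0638 and 0.0909), in a range of 0.00463 to 0.355 over the alternatives. Slc2a3 no longer passed without i2PS replicate 1 or 3 (-0.42 and -0.41) or with equal medians of the detected probes (-0.43), in a range of 0.00195 to 0.773. In the ratio of the transporters within an array, a plain scaling of that array cancels. As log2 of Slc2a1 over Slc2a3 it read -2.58, -1.90 and -1.93 on the E14TG2A arrays and -1.29, -1.38 and -1.19 on the i2PS arrays. The lines did not overlap, and the ratio rose by 0.85 ± 0.228, with 0.63 to 0.97 over the alternatives. Only the change of such a ratio has a meaning, since its starting value rests on the response of 2 probes.

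Among the genes of upper glycolysis, 2 of 6 rose and none fell. Phosphofructokinase carries out the committed step, and its isozyme genes did not move together. The liver type Pfkl read 10.43, 10.52 and 10.32 in E14TG2A and 11.23, 11.12 and 11.12 in i2PS, a rise of 0.73 ± 0.106 (1.66-fold, adjusted p = 0.000646). The muscle type Pfkm read 7.86, 8.11 and 8.09 against 8.62, 8.74 and 8.69, a rise of 0.66 ± 0.112 (1.58-fold, adjusted p = 0.00147). In both genes every i2PS array lay above every E14TG2A array. The platelet type Pfkp overlapped between the lines, at 8.33, 8.64 and 8.24 against 8.52, 8.25 and 8.17, a difference of -0.09 ± 0.143 (95% interval -0.41 to 0.23, adjusted p = 0.635).

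Within arrays, the liver and muscle types each rose against the platelet type. The log2 ratio of Pfkl to Pfkp went from 2.10, 1.88 and 2.08 in E14TG2A to 2.71, 2.87 and 2.95 in i2PS, a change of 0.82 ± 0.10. That of Pfkm to Pfkp changed by 0.75 ± 0.179. The lines did not overlap in either ratio. The ratio of Pfkl to Pfkm overlapped between the lines, with a change of 0.07 ± 0.121. Pfkfb3, whose product makes an activator of phosphofructokinase, was detected on 1 i2PS array and no E14TG2A array, at raw signals of 83.3 to 112.2, and was not tested.

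Hexokinase traps glucose in the cell. Both probes of Hk1 were undetected on all arrays, at raw signals of 82.7 to 101.9, so that no hexokinase gene of the list could be compared. Aldolase splits the sugar, and neither of its genes passed. Aldoa, the muscle and general type, read 11.67, 11.34 and 11.29 against 11.22, 11.14 and 11.24, without overlap, a difference of -0.23 ± 0.125 (adjusted p = 0.165). Aldoc, the brain type, read 6.52, 6.30 and 6.35 against 6.49, 6.54 and 6.76, a difference of 0.21 ± 0.118 (adjusted p = 0.185). Their ratio, Aldoa over Aldoc, went from 5.15, 5.03 and 4.94 to 4.73, 4.61 and 4.48, a change of -0.44 ± 0.093 without overlap. Triose phosphate isomerase, Tpi1, differed by -0.24 ± 0.117 (adjusted p = 0.123), and it passed as lower without E14TG2A replicate 1 (-0.34, adjusted p = 0.0209; 0.0152 to 0.953 over the alternatives).

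**Figure D2:**
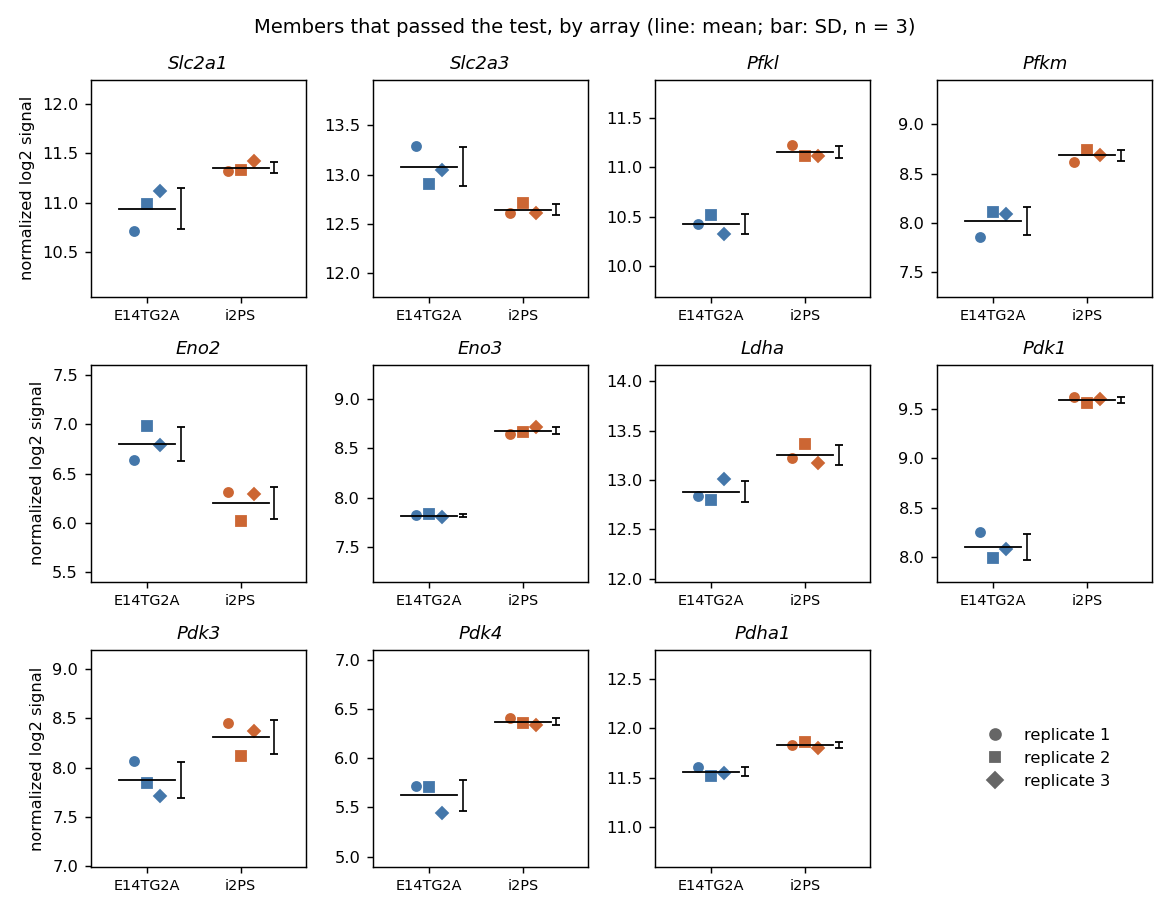
Normalized log2 signal on each array for the 11 genes that passed, with the mean and SD of the 3 arrays of each line; each panel spans the same number of log2 units. In all 11 panels the arrays of the lines do not overlap, and the gap is widest for Pdk1, at 8.25, 7.99 and 8.08 against 9.62, 9.56 and 9.60.

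Of 7 tested genes of lower glycolysis, Eno3 rose, Eno2 fell and 5 did not pass. Eno3, the muscle enolase, had raw signals of 188.4, 322.4 and 372.4 in E14TG2A and 483.1, 509.3 and 506.9 in i2PS. After normalization its arrays read 7.82, 7.83 and 7.80 against 8.65, 8.67 and 8.72, so that the lines lay far apart compared with their spread. It rose by 0.86 ± 0.097 (1.82-fold, adjusted p = 0.000165).

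Eno2, the enolase of neurons, had raw signals of 126.2, 211.6 and 224.1 in E14TG2A and 154.3, 146.2 and 155.6 in i2PS. The raw signals overlap through E14TG2A replicate 1, the dimmest array, and the normalized values of 6.64, 6.98 and 6.79 against 6.31, 6.02 and 6.29 do not. Eno2 fell 1.51-fold (-0.60 ± 0.131, adjusted p = 0.00561). This difference of a dim probe ran from -0.70 to -0.32 over the alternatives, with -0.32 both without background correction and in the authors' processed table. The log2 ratio of Eno2 to Eno3, taken within each array, was -1.18, -0.85 and -1.01 in E14TG2A and -2.34, -2.64 and -2.44 in i2PS. This change of -1.46 ± 0.132 was the largest of the 10 isozyme pairs, and it ran from -1.56 to -1.0 over the alternatives.

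Enolase 1, the form of most dividing cells, was not analysed here under its own name. A probe named for Eno1b, a nearly identical copy, read raw signals of 133.2, 181.6 and 217.5 against 134.1, 168 and 130.5 and differed by -0.71 ± 0.172 (adjusted p = 0.00909). Which RNA this probe reports is uncertain, and it was not counted as a member.

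The other genes of lower glycolysis did not pass. Gapdh, often used as a reference gene, read 13.67, 13.79 and 13.83 in E14TG2A and 13.57, 13.60 and 13.53 in i2PS, without overlap, a difference of -0.20 ± 0.102 (95% interval -0.43 to 0.03, adjusted p = 0.146). Phosphoglycerate kinase, Pgk1, differed by -0.13 ± 0.162 and phosphoglycerate mutase, Pgam1, by -0.04 ± 0.165. The muscle mutase Pgam2 was near background and detected on 5 of 6 arrays. It entered the test through i2PS, where it reads higher, and differed by 0.26 ± 0.174. Pkm, the pyruvate kinase that makes the last step, differed by 0.02 ± 0.145 (95% interval -0.30 to 0.35). The files do not say which splice form its probes report. The ratio of Pgam1 to Pgam2 overlapped between the lines and changed by -0.30 ± 0.396. Without E14TG2A replicate 1 that change was 0.07. Several of these genes, Gapdh, Pgk1, Tpi1, Aldoa and Ldha among them, have near-identical pseudogene copies, which a probe may also report.

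**Figure D3:**
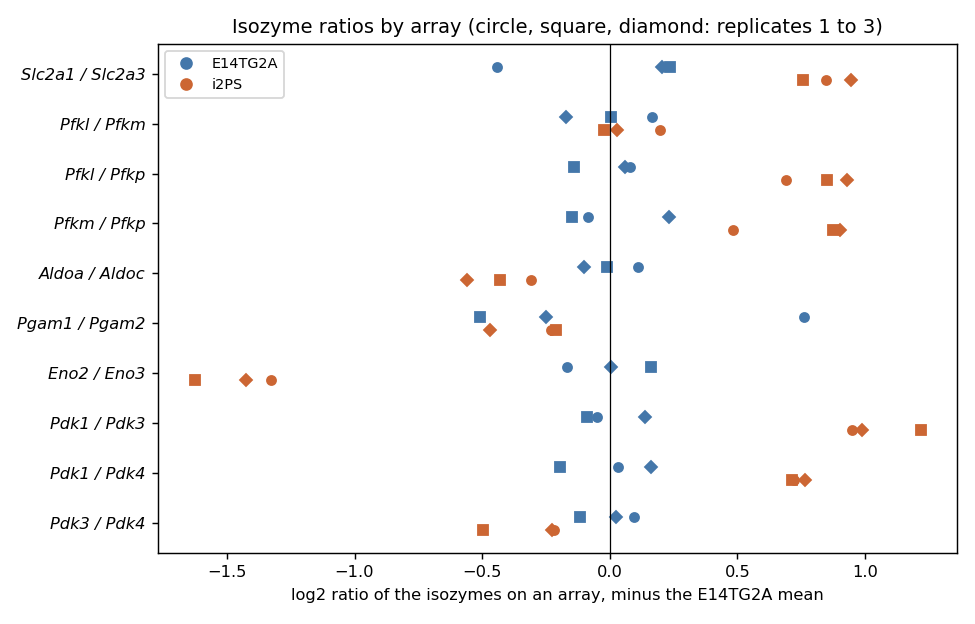
Log2 ratio of 2 isozymes on each array, minus the E14TG2A mean of that ratio, for 10 pairs; circles, squares and diamonds are replicates 1 to 3 of each line. The lines are apart for 8 pairs and overlap for Pfkl / Pfkm and Pgam1 / Pgam2. Of all tested genes taken singly, 55.8% are apart. Eno2 / Eno3 lies farthest from 0, at -1.46 on average.

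Over the 10 pairs of 6 isozyme families, the lines did not overlap for 8 pairs. Taken singly, 55.8% of all tested genes did not overlap, and no share over other gene pairs was computed. Of the 8 pairs, all but Aldoa with Aldoc hold a gene that passed by itself, so the count is no separate result about isozymes. With 3 arrays against 3, the exact two-sided permutation test over arrays cannot give a p below 0.1. These 8 pairs reached that smallest p of 0.1, or 0.125 after adjustment over the 10 pairs. The overlapping pairs, Pfkl with Pfkm and Pgam1 with Pgam2, gave an exact p of 0.5 and 0.9. None of the ratio changes can therefore pass a threshold of 0.05 on its own. Pairs of 1 family share genes and are not independent of each other.

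Of the genes for making and exporting lactate, only Ldha was detected well enough to test. Ldha, the subunit that favours lactate formation, read 12.84, 12.80 and 13.01 in E14TG2A and 13.22, 13.37 and 13.17 in i2PS. The lines did not overlap, and Ldha rose by 0.37 ± 0.112 (1.29-fold, adjusted p = 0.0252). The call was lost without E14TG2A replicate 2 (adjusted p = 0.0846) and without i2PS replicate 1, 2 or 3 (0.0523, 0.107 and 0.0523), in a range of 0.00273 to 0.386 over the alternatives. Ldhb, the subunit that favours use of lactate, was detected on 2 arrays of each line at raw signals of 89 to 123.2, so that the balance of the 2 subunits could not be compared. The lactate carriers Slc16a1 (MCT1) and Slc16a3 (MCT4) had raw signals of 85 to 104.7 and 87.3 to 105.4, and of their 4 probes 1 was detected, on 1 E14TG2A array.

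Of the 4 listed kinases that switch off pyruvate dehydrogenase, the 3 tested passed as higher, with a median of 0.75. Of all tested genes, 23.3% passed as higher. Pdk1, known as a hypoxia-induced form, had raw signals of 226.2, 352.6 and 434 in E14TG2A and 873.4, 878.4 and 867.7 in i2PS. Even the lowest i2PS signal lay well above the highest E14TG2A signal. Normalized, it read 8.25, 7.99 and 8.08 against 9.62, 9.56 and 9.60, a rise of 1.49 ± 0.108 (95% interval 1.24 to 1.73, adjusted p = 1.43e-05). It was the only member past 2-fold, and it passed under all 19 alternatives, with differences of 1.25 to 1.67.

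Pdk4, the form known to rise in fasting, lay near background at raw signals of 103.4, 132.6 and 135.3 against 160.3, 164.9 and 158.3, although it was detected on every array. All i2PS arrays lay above all E14TG2A arrays. Normalized values of 5.72, 5.71 and 5.44 against 6.41, 6.36 and 6.34 gave a rise of 0.75 ± 0.115 (1.68-fold, adjusted p = 0.000876), which ran from 0.33 to 0.85 over the alternatives.

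Pdk3 read 8.07, 7.85 and 7.71 in E14TG2A and 8.45, 8.12 and 8.37 in i2PS, close together but without overlap. It rose by 0.43 ± 0.134 (1.35-fold, adjusted p = 0.0272). This call was lost without E14TG2A replicate 2 or 3 (adjusted p = 0.0705 and 0.0906), without i2PS replicate 1 or 3 (0.0944 and 0.0929) and with no filter on dim probes (0.0574), in a range of 0.00371 to 0.36. Pdk2, a form present in most tissues, was undetected on all arrays at raw signals of 86.2 to 111.5.

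Within arrays, Pdk1 rose against both other kinases. The log2 ratio of Pdk1 to Pdk3 was 0.18, 0.14 and 0.37 in E14TG2A and 1.18, 1.45 and 1.22 in i2PS, a change of 1.05 ± 0.109 with 0.92 to 1.12 over the alternatives. The ratio of Pdk1 to Pdk4 went from 2.52, 2.29 and 2.65 to 3.21, 3.20 and 3.25, a change of 0.74 ± 0.108. The lines were apart in both. Pdk3 to Pdk4 changed by -0.32 ± 0.109 without overlap, but this change was 0.00 without background correction and in the authors' processed table; Pdk4 was the dim member of the pair.

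Of the 4 genes of the pyruvate dehydrogenase complex itself, 1 rose and none fell. Pdha1, which codes for the catalytic subunit that the kinases phosphorylate, read 11.61, 11.52 and 11.55 in E14TG2A and 11.83, 11.86 and 11.80 in i2PS. The lines did not overlap, and it rose by 0.27 ± 0.098 (1.21-fold, adjusted p = 0.0495), just inside the threshold. Over the 19 alternatives it passed in 9, with adjusted p from 0.00998 to 0.543, and of the 6 single arrays left out only E14TG2A replicate 1 left the call in place. Pdhb, its partner subunit, overlapped at 10.07, 10.47 and 10.24 against 10.24, 9.73 and 9.80, a difference of -0.34 ± 0.161 (adjusted p = 0.117). It passed as lower without i2PS replicate 1 (-0.50, adjusted p = 0.0316; range 0.00653 to 0.964).

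Dlat, the acetyl-transferring subunit, read 7.12, 7.18 and 7.2 against 7.04, 7.08 and 7.03, a difference of -0.12 ± 0.097 (adjusted p = 0.358). The values do not overlap, although the interval of -0.34 to 0.10 holds 0. Dld, the subunit that the complex shares with other dehydrogenases, was undetected on E14TG2A replicate 1 and entered the test through i2PS, where it reads higher. It differed by 0.33 ± 0.146 (adjusted p = 0.0986). It passed without E14TG2A replicate 2 (0.48, adjusted p = 0.0179, up to 0.66 over the alternatives). That array held the highest value of its line, 5.52 against 5.04 and 5.07. Hif1a, the oxygen-regulated factor that drives many glycolytic genes, overlapped at 8.09, 7.98 and 8.18 against 8.15, 7.93 and 7.62, a difference of -0.19 ± 0.144 (95% interval -0.51 to 0.14, adjusted p = 0.315).

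Several members were read by more than 1 probe. Of 51 member probes, 34 passed the detection filter, and 8 members had several of them, 18 probes in all. Fitted probe by probe, 12 of the 34 passed, 10 higher and 2 lower, a share somewhat below the 40.6% of all kept probes. Both kept probes of Pfkm rose, by 0.663 ± 0.115 and 0.644 ± 0.110. For Pdk1 the probes read 1.486 ± 0.111 and 1.514 ± 0.199 (adjusted p = 2.34e-05 and 0.000466). The second Pdk1 probe was not detected on E14TG2A replicate 1. It entered through i2PS, where it is high, so the filter favoured its direction. Pgam1 and Pkm also had all kept probes on 1 side of 0, without passing; the probes of Pkm read 0.024 and 0.366. For Pdhb, Pfkp, Pgk1 and Tpi1 the probes lay on both sides of 0, and none of them passed. The probes of Pdhb gave -0.338, 0.229 and 0.134. The second probes of Pkm (0.366) and Pgk1 (0.214) also entered through i2PS alone, where they read higher. That of Pgam1 (-0.172) entered through E14TG2A alone, where it read higher. Pdha1, past the threshold among genes, missed it among probes (adjusted p = 0.0598).

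**Figure D4:**
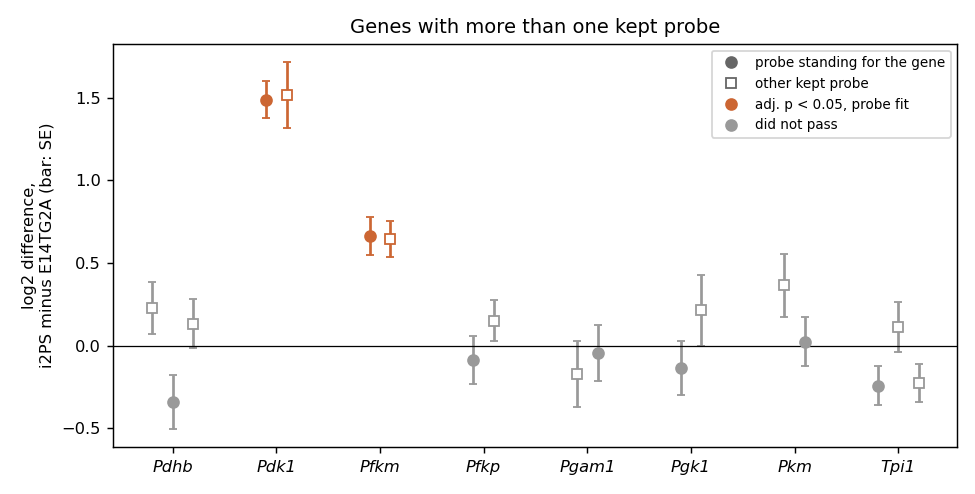
Log2 difference of every kept probe of the 8 genes with several, with its SE; filled circles are the probe with the highest mean signal, which stands for the gene, and orange marks probes past the threshold. Both probes of Pdk1 lie at about 1.5 and both of Pfkm above 0.6, while the probes of Pdhb, Pfkp, Pgk1 and Tpi1 straddle 0. The second probes of Pdk1, Pkm and Pgk1 entered through i2PS alone, and that of Pgam1 through E14TG2A alone.

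The genes around the pathway were read from 7 lists with 107 genes, of which 56 were tested, 8 rose and 8 fell. The share that passed was 28.6%, beside 43.7% of all tested genes. Of 8 tested further isozymes and regulators of glycolysis, 1 rose and 3 fell, with a median of 0.18. That median includes Pfkfb4, Ldhc (0.48) and Minpp1 (0.44), which entered the test through i2PS, where they read higher. Pfkfb4, which like Pfkfb3 sets the level of the phosphofructokinase activator, rose by 0.95 ± 0.23 (adjusted p = 0.00839) at raw signals near background, 93.1 to 139.7 against 143.8 to 173.9. It was detected on 2 of 3 E14TG2A arrays and on all i2PS arrays, so it entered the test through the line where it is high. Its relative Pfkfb2 differed the other way, by -0.57 ± 0.13 (adjusted p = 0.00813). Galm, which interconverts the alpha and beta ring forms of glucose and galactose, had the largest difference, -1.27 ± 0.12, with raw signals of 256.6, 428.3 and 499.7 against 230, 215.9 and 215.2. Pgm1, which links glycogen to glycolysis, differed by -0.63 ± 0.13.

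Most genes typical of liver glucose output were not detected well enough to test in either line. Slc2a2 (GLUT2), Pklr (liver pyruvate kinase) and Pck1 (the entry enzyme of gluconeogenesis) were detected on no array, G6pc on 1 i2PS array and Fbp1 on 1 E14TG2A array. The 2 genes of that list that could be tested, Fbp2 (0.14 ± 0.12) and G6pc3 (0.23 ± 0.13), did not pass. In the pentose phosphate branch, 1 of 7 tested genes rose and none fell. This was H6pd, the glucose-6-phosphate dehydrogenase of the endoplasmic reticulum, with 1.02 ± 0.16 (adjusted p = 0.00089). Its raw signals lay near background, at 98.3 to 144.1 in E14TG2A and 156 to 195.9 in i2PS, although every array detected it.

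None of the 4 tested genes that counter the kinases or equip the complex passed. The phosphatase genes Pdp1, Pdp2 and the regulator Pdpr, which switch the complex on again, differed by 0.17 ± 0.18, 0.11 ± 0.15 and 0.17 ± 0.10, and Lias, which makes its lipoate, by 0.23 ± 0.11. Of 18 tested genes listed with the TCA cycle, some of which act outside it, 3 rose and none fell, with a median of 0.15. The 16.7% that passed compare with 43.7% of all tested genes. Acly, which returns citrate to acetyl-CoA in the cytosol, rose by 0.68 ± 0.10 (adjusted p = 0.000867). Idh1 rose by 0.51 ± 0.13 and Idh3g, a subunit of the mitochondrial isocitrate dehydrogenase, by 0.47 ± 0.10. Of these 3, Idh3g alone belongs to the cycle itself.

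Since Hif1a drives many glycolytic genes, the oxygen-sensing genes and hypoxia targets outside glycolysis were read beside the members. None of 5 tested oxygen-sensing genes passed. Arnt, the partner of HIF1A, differed by -0.11 ± 0.10, Vhl, which marks HIF1A for destruction, by -0.12 ± 0.11, and Hif3a by -0.04 ± 0.11. Vhl was detected on 2 of 3 i2PS arrays and entered the test through E14TG2A, where it reads higher. The hydroxylase genes Egln2 and Hif1an differed by 0.21 ± 0.15 and -0.30 ± 0.12, the latter with an adjusted p of 0.0646. Vhl, Hif3a and Egln2 lay near background, at raw signals of 97.3 to 122.3, 101.9 to 142.4 and 110.8 to 152.2. Of 12 tested hypoxia targets outside glycolysis, 3 rose and 5 fell, with a median of -0.20. That is 66.7%, beside 43.7% of all tested genes. P4ha2 rose by 0.69 ± 0.16 and Bnip3l by 0.52 ± 0.13. Ankrd37 rose by 0.74 ± 0.15, but it was detected on 1 of 3 E14TG2A arrays and entered the test through i2PS, where it is high. Stc2 differed by -1.32 ± 0.12, Ddit4 by -1.23 ± 0.11 and Plod2 by -1.14 ± 0.24, all past the threshold; the others that fell were Bhlhe40 and Hmox1. Genes of this list passed in both directions, and whether hypoxia has a part in any of these differences was not tested.

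**Figure D5:**
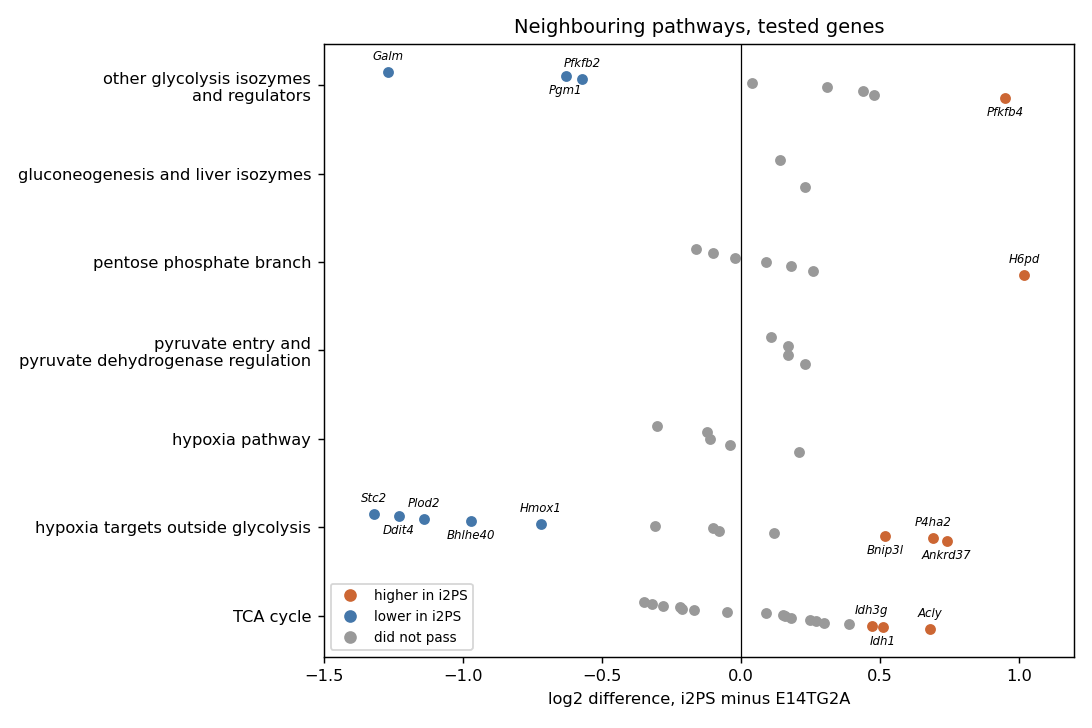
Log2 difference, i2PS minus E14TG2A, of the 56 tested genes of 7 neighbouring lists, 1 row per list, with names at the genes that passed. The row of hypoxia targets spans from Stc2 at -1.32 to Ankrd37 at 0.74. In the row labelled TCA cycle, the 3 genes that passed, Idh3g, Idh1 and Acly, are all on the higher side.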

How the data were processed

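RNA of 3 cultures per line was labelled with biotin and read on 1-colour Illumina arrays with 45281 probes. The deposited probe signals are linear intensity values before normalization, exported from GenomeStudio per the submitters' processing notes. The authors also deposited a detection p-value for each signal. Their processed table, with quantile-normalized intensity values as read from the values themselves, served as an alternative.

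Background was taken from the detection p-values, an offset of 16 was added, and signals were quantile-normalized and put on the log2 scale (neqc, limma 3.58.1, R 4.3.3). The filter kept probes that named 1 gene and had a detection p below 0.01 on each of the 3 arrays of a line, in 1 line or both. Of the probes, 34885 named 1 gene in the platform annotation of GEO, 18 named several and 10378 were not listed. Current symbols came from a RefSeq table (GRCm38.p6), by gene number for 34807 probes and by accession for 11, and 67 kept the platform symbol. The kept probe with the highest mean stood for a gene. Lines were compared with lmFit and eBayes over all tested genes, or over all kept probes, with Benjamini-Hochberg adjustment and a threshold of 0.05. Every adjusted p of a gene or probe comes from these limma fits. Isozyme ratios were compared with exact two-sided permutation tests over the arrays. The fitting code was tested on simulated data.

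Members, lists and naming rules were chosen with earlier results of these data known. Every member is accounted for. From the other lists, up to 3 genes with the largest rise and 3 with the largest fall past the threshold were named, and all tested genes of lists with at most 6. Bhlhe40 and Hmox1, and liver genes that were not tested, were named after their values were seen.

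The alternatives were 2 other background corrections, 3 other scalings, the authors' table, 3 other detection filters, the mean of a gene's probes, another variance model, array weights, the replicate block and each array left out, 19 in all. The equal medians over probes detected on all arrays were chosen after seeing the data. A slide block was not run, because no slide is given in the sources used here. Precision is limited by having 3 arrays per line.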

Additional observations from a re-analysis of the deposited data

How the results depend on the processing

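With equal medians of all probes, 634 genes passed, 357 higher and 277 lower, in place of 3781, and of the members 1 passed, Pdk1, as higher and 0 as lower; of the neighbouring lists, 3 genes passed in place of 16. Other scalings without quantile normalization gave 3807 genes and 10 members (cyclic loess) and 3273 genes and 9 members (equal medians of the probes detected on all arrays). The number of members that were lower was 1 with the last of these, 4 with a variance trend and robust moderation, and 5 with array weights, in place of 2. Leaving out 1 array at a time gave 6 to 12 members past the threshold, 5 to 9 higher and 1 to 3 lower; the fewest came without i2PS replicate 3 (6) and replicate 1 (7), and these fits test with fewer arrays. Changes of sign were met in 6 members, none of them past the threshold. Equal medians gave Pfkp 0.09, Pgk1 0.04, Pgam1 0.14 and Dlat 0.06, the mean of kept probes gave Pfkp 0.03, Pgk1 0.04 and Pdhb 0.01, array weights gave Pgam1 0.07 and cyclic loess gave Pkm -0.03. With 1 array left out, Pfkp ran from -0.19 to 0.03, Pgk1 from -0.28 to 0.05, Pgam1 from -0.18 to 0.12, Pkm from -0.06 to 0.17, the ratio of Pfkl to Pfkm from -0.01 to 0.15 and that of Pgam1 to Pgam2 from -0.55 to 0.07. The ratio of Pdk3 to Pdk4 changed by 0.00 without background correction and in the authors' table. The cause of these changes was not tested. Of 454 member values recomputed, 394 kept their direction and side of the threshold. Genes of the neighbouring lists were recomputed as a count only.

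With the replicate number as a block, 3613 genes passed, and of the members 8 higher and 2 lower; Pdha1 lost its call (adjusted p = 0.0882). The deviations of arrays with the same number correlated at 0.009, -0.047 and 0.068 across genes, and not every array correlated best with its own number, so the arrays share only a number.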
